A study of Mus musculus with 300 samples.

Results

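The fatty acid synthesis genes described here are Fasn, Acaca, Acacb, Acly, Scd1, Elovl6, Srebf1, Me1, Thrsp and Mid1ip1, which are 10 of the 18193 genes measured on each array. They were chosen by name, as enzymes of the pathway and their regulators. The array carries 23 probe sets for them, and each gene is represented by its brightest probe set, judged by the mean over all arrays.

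Mice were dosed orally with a PPAR agonist or with vehicle, and liver, heart, kidney and skeletal muscle were profiled on Affymetrix mouse genome arrays. WY14643 is an agonist of PPAR-alpha, GW501516 of PPAR-delta and rosiglitazone of PPAR-gamma, each given at 10 mg/kg. Each tissue has 5 arrays per compound and 10 vehicle arrays on each of days 4, 8 and 15, so 75 arrays from 75 animals and 300 arrays in all. The strain, sex and age of the animals are not given in the sources used here, and the vehicle is not described further.

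New fatty acids are built in the cytosol when carbohydrate is plentiful. Citrate leaves the mitochondrion, Acly (ATP citrate lyase) splits it into acetyl-CoA, acetyl-CoA carboxylase makes malonyl-CoA, and Fasn (fatty acid synthase) joins these units into palmitate with NADPH that Me1 (malic enzyme) helps to supply. Elovl6 lengthens palmitate and Scd1 adds a double bond. Srebf1 encodes SREBP-1, the transcription factor that insulin and feeding raise and that drives the whole set. Thrsp (Spot 14) and its relative Mid1ip1 (MIG12) are small regulators of the pathway, and Mid1ip1 protein activates acetyl-CoA carboxylase. The pathway is prominent in liver and adipose tissue, brown fat included, and is low in working muscle.

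On mouse build GRCm38.p6 the genes are spread over 7 chromosomes. Fasn (chr11:120805958-120825166), Acly (chr11:100476352-100528000), Acaca (chr11:84129635-84401651) and Srebf1 (chr11:60199084-60224186) lie on chromosome 11. Elovl6 is at chr3:129532386-129638495, Acacb at chr5:114146321-114250761, Thrsp at chr7:97412933-97417550 and Me1 at chr9:86581363-86695914. Scd1 is at chr19:44394450-44407709 and Mid1ip1 at chrX:10717365-10719702.

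The labels were checked on known PPAR target genes. In liver the omega-hydroxylase gene Cyp4a14 was higher by 5.67 on the log2 scale with WY14643 and by 5.48 with GW501516, and the pantetheinase gene Vnn1 by 2.36 with rosiglitazone. Cyp4a14 was also higher with WY14643 in kidney (5.76), heart (4.03) and muscle (2.59), and Angptl4, a lipase inhibitor gene, was higher with GW501516 in kidney (1.55) and heart (1.90). All of these passed the test. Tissue markers fitted the labels: the mean of 7 hepatocyte genes was 14.21 to 14.36 over the livers, and the cardiomyocyte, tubule and fibre genes averaged 12.1 to 14.66 in heart, 11.32 to 12.61 in kidney and 12.85 to 13.44 in muscle. Liver held 3 brown adipocyte genes (Ucp1, Cidea, Dio2) at 3.71 to 4.79, whereas their mean spanned 7.79 to 12.66 in heart, 2.93 to 9.27 in kidney and 4.33 to 12.09 in muscle.

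All levels below are log2 intensities, and all differences are treated minus vehicle of the same day on that log2 scale, taken as the mean of days 4, 8 and 15 where the text gives no day. Calls were made where the adjusted p was under 0.05 (limma, Benjamini-Hochberg over 18193 genes), and "rose" and "fell" are used for called genes. Each compound was set against the same vehicle arrays, so the 3 comparisons of a tissue are not independent. The tissues were normalized apart and probe sets differ in brightness, so levels are compared neither between tissues nor between genes. In whole tissue, fewer cells of a type and less RNA per cell cannot be told apart.

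Few of the 10 genes changed over the 3 days. In liver 1 fell with WY14643 (11.2% of all genes were called), 1 fell with GW501516 (13.9%) and 2 fell with rosiglitazone (16.2%), and 0 rose. In kidney 3 rose with WY14643 (1.74% of all genes), 2 rose with GW501516 (6.79%) and 0 were called with rosiglitazone (1.52%). In heart 0 were called with WY14643 (1.44%), and 1 rose with each of GW501516 (4.17%) and rosiglitazone (7.51%). In muscle 0 were called with WY14643 (0.104%), and 1 rose with each of GW501516 (0.857%) and rosiglitazone (1.65%). In heart and muscle that gene was Mid1ip1 each time. The shares called in liver, 1 or 2 of 10, were near those of all genes.

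**Figure D1:**
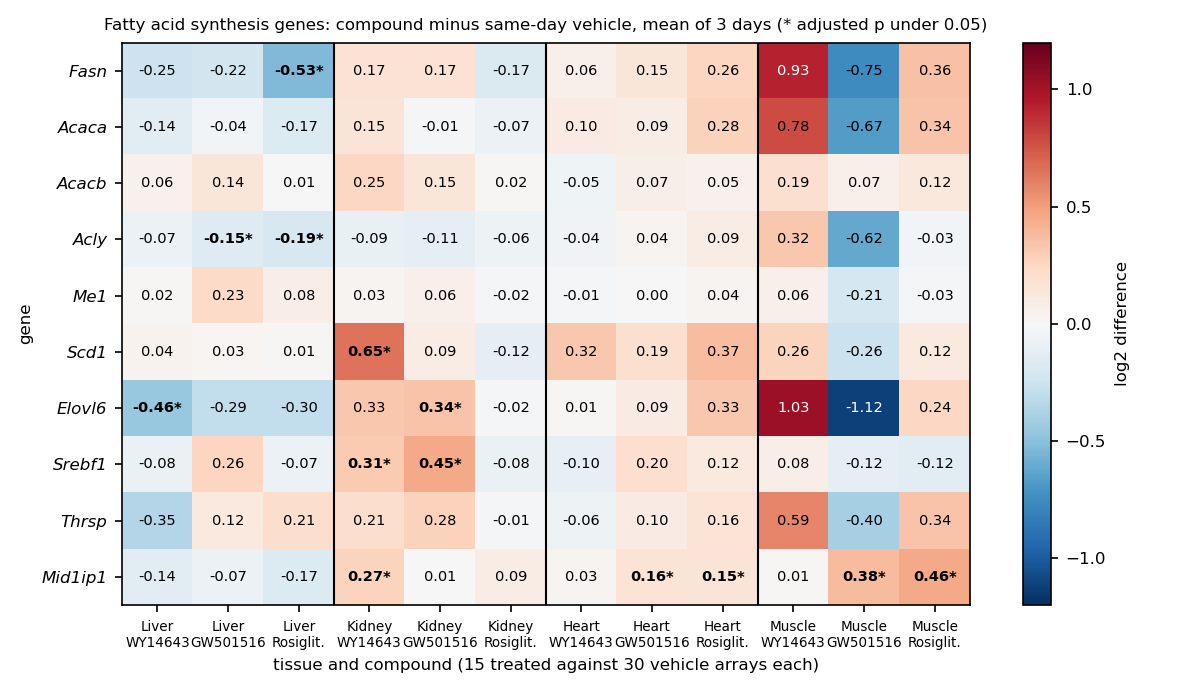
Mean log2 difference from same-day vehicle over days 4, 8 and 15 for the 10 fatty acid synthesis genes (vertical axis) in each tissue and compound (horizontal axis), with an asterisk where the adjusted p was under 0.05. Liver holds falls in Elovl6, Acly and Fasn, kidney holds rises in Scd1, Elovl6, Srebf1 and Mid1ip1, and heart and muscle hold rises in Mid1ip1.

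In liver, rosiglitazone lowered Fasn and Acly. Fasn fell by 0.53 (SE 0.13, adjusted p 0.00151 in limma), to 0.690-fold of vehicle, and was under the same-day vehicle mean in 14 of 15 arrays. Acly fell by 0.19 (SE 0.041, adjusted p 0.000386), in 13 of 15 arrays. The carboxylase genes did not pass, with Acaca at -0.17 and Acacb at 0.01, and neither did Me1 (0.08), Scd1 (0.01) or Elovl6 (-0.30, adjusted p 0.115). The median over the 10 genes was -0.12 beside -0.02 over all genes, with 6 of the 10 below 0 beside 59.8% of all genes.

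The Fasn values by array show where that difference lay. On day 8 the 5 rosiglitazone livers had Fasn at 11.27, 11.47, 11.70, 11.71 and 11.85, beside 11.77 to 13.24 (median 12.31) in the 10 vehicle livers. All 5 treated livers were under the vehicle median, and 4 of the 5 were under the lowest vehicle liver. On that day the difference was -0.79 (SE 0.22, adjusted p 0.0114; 12.8% of all genes called in limma), or 0.580-fold, and the call ended without rosiglitazone replicate 4 (adjusted p 0.0552). On day 4 the rosiglitazone livers ran 11.44, 11.46, 11.50, 11.69 and 11.92 and the vehicle livers 11.17 to 12.81 (median 12.12), and on day 15 11.76, 11.81, 11.90, 12.27 and 12.39 beside 11.82 to 13.26 (median 12.25). These ranges overlapped and neither day was called for Fasn. Without day 8 the mean difference was -0.41, with an adjusted p of 0.103.

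Acly moved in a narrow band. On day 8 the rosiglitazone livers had Acly at 13.04, 13.12, 13.13, 13.13 and 13.14, all below the vehicle livers at 13.20 to 13.58 (median 13.32). Non-overlapping ranges of this kind were seen in 3.89% of all genes on that day. The day 8 difference was -0.23 (adjusted p 0.0214 in limma) and ended without replicate 5 (adjusted p 0.0609). On day 15 the rosiglitazone livers had 12.94, 13.03, 13.06, 13.08 and 13.33 and the vehicle livers 13.09 to 13.62 (median 13.35), a difference of -0.24 (adjusted p 0.0288; 5.34% of all genes called) that overlapped vehicle and ended for 6 of 15 single arrays left out. GW501516 also lowered Acly, by 0.15 (SE 0.041, adjusted p 0.00531), in 13 of 15 arrays. Acly has 6 probe sets. In a fit of all probe sets 6 of 6 were called lower with rosiglitazone, from -0.11 to -0.62, and 5 of 6 with GW501516, from -0.15 to -0.57. The dimmest of them had liver means of 1.96 and 2.92 (percentiles 0.4 and 9.7 of all probe sets). They lie near the floor and add little to these counts.

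WY14643 lowered Elovl6, the elongase gene, by 0.46 over the 3 days (SE 0.13, adjusted p 0.0126), to 0.729-fold and in 12 of 15 arrays. All 3 of its probe sets were called lower, from -0.43 to -0.83. The other compounds gave Elovl6 values of -0.29 (adjusted p 0.134) and -0.30 (adjusted p 0.115), which did not pass. Fasn was at -0.25 with WY14643 and -0.22 with GW501516, Thrsp at -0.36 with WY14643 (adjusted p 0.102), and Srebf1 at 0.26 with GW501516 (adjusted p 0.0583), none of them called. The Elovl6 call ended without WY14643 day 4 replicate 2 (-0.34, adjusted p 0.0584), and Thrsp was called without day 4 replicate 1, 3 or 4 (lowest adjusted p 0.0261) but was at -0.10 (adjusted p 0.282) without day 4 replicate 2. Srebf1 with GW501516 was called for 7 of 45 single arrays left out.

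Scd1, the desaturase gene, stayed near the top of the array's range in liver. Its group means were 14.05 to 14.21 and its probe set sat at percentile 99.9 of all probe sets. Its mean differences were 0.04, 0.03 and 0.01 with WY14643, GW501516 and rosiglitazone. A second Scd1 probe set, at a mean of 12.06, gave 0.27, 0.24 and 0.12, also not called.

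WY14643 on day 4 gave the broadest shift of the 10 genes in liver. All 10 were below the vehicle mean (54.5% of all genes were), with a median of -0.43 beside -0.02 over all genes. The 4 that were called (6.45% of all genes) were the elongase gene Elovl6 and the regulators Srebf1, Thrsp and Mid1ip1. Without replicate 2, a liver described below, only Thrsp remained called. The sequences just upstream of the annotated starts of these 4 genes are printed because they are the members called on that day with all livers. Each is 250 bases from RefSeq on mouse build GRCm38.p6, on the strand of the gene, with motif matches in capitals.
Elovl6, chr3:129532136-129532385, plus strand: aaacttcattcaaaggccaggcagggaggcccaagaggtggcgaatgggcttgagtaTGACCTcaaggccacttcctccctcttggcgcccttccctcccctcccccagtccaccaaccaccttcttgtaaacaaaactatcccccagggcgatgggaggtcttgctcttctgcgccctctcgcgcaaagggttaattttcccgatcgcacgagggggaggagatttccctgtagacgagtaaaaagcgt
Srebf1, chr11:60210472-60210721, minus strand: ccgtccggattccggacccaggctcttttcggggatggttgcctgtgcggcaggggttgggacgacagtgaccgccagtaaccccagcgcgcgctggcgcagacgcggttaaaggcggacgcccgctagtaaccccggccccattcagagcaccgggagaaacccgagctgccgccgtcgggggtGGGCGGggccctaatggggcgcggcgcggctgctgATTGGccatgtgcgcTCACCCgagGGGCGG
Thrsp, chr7:97417551-97417800, minus strand: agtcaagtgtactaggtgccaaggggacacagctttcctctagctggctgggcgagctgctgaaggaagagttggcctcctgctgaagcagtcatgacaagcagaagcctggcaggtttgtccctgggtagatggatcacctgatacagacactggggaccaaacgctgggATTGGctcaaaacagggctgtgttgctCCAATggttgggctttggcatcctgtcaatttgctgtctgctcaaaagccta
Mid1ip1, chrX:10717115-10717364, plus strand: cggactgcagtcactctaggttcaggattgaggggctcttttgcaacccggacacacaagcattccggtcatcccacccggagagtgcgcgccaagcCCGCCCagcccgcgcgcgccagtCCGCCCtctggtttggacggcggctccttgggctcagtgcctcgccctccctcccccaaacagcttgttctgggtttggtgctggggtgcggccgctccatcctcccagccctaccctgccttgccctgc

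The letters searched on both strands were CCAAT (the NF-Y box), GGGCGG (the GC box bound by Sp1), CACGTG (the E-box), TCACCC (letters within many sterol elements bound by SREBP) and AGGTCA (the half-site of PPAR and other nuclear receptors). Srebf1 has 3 windows, and the one printed was chosen after the matches were seen because it holds the most. It lies inside the annotated gene span ahead of an inner start and holds a CCAAT box 30 bases upstream, TCACCC letters 15 bases upstream and 2 GC boxes. Of the others, chr11:60220628-60220877 holds 2 GC boxes and chr11:60222582-60222831 holds 1 CCAAT box. Thrsp holds 2 CCAAT boxes, Mid1ip1 2 GC boxes and Elovl6 1 half-site 193 bases upstream. Of the 12 windows of 9 members, 6 held CCAAT, 5 the GC box, 0 the E-box, 3 TCACCC and 2 the half-site. Over 32851 windows of the same length the shares were 33.8%, 32.7%, 6.02%, 13.8% and 14.0%. The Fasn window held 3 CCAAT matches, a pair of them overlapping, and 1 TCACCC match. Matches are letters only and were not tested for binding.

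On day 4 Thrsp stood at 9.57, 13.23, 13.39, 13.40 and 13.74 in the 5 WY14643 livers and 13.66 to 14.09 (median 13.92) in the vehicle livers. Only the highest treated liver reached the vehicle range. Elovl6 was 9.03, 10.18, 10.83, 10.94 and 11.14 beside 10.65 to 11.94 (median 11.28), and these ranges overlapped. Srebf1 was 10.50, 10.93, 11.03, 11.06 and 11.24, all below the vehicle livers at 11.31 to 11.79 (median 11.59), as in 1.19% of all genes. Mid1ip1 was 9.95, 11.30, 11.44, 11.61 and 11.68 beside 11.46 to 12.15 (median 11.93), with overlap. The differences were -1.24 for Thrsp (SE 0.25, adjusted p 0.000517), -0.86 for Elovl6 (SE 0.23, adjusted p 0.0112), -0.64 for Srebf1 (SE 0.16, adjusted p 0.00804) and -0.68 for Mid1ip1 (SE 0.15, adjusted p 0.00243). Each was under the vehicle mean in 5 of 5 livers, and the 3 probe sets of Thrsp gave -1.24, -1.71 and -1.31.

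A single liver set much of that size. WY14643 day 4 replicate 2 was the lowest of all 75 livers for 9 of the 10 genes, with Acacb, at rank 7, the exception. It had Thrsp at 9.57 where the next treated liver had 13.23, Fasn at 10.32 and Elovl6 at 9.03. Without it, Thrsp was at -0.47 (SE 0.096, adjusted p 0.00175 in limma) and remained called, while Elovl6 (-0.51, adjusted p 0.187), Srebf1 (-0.53, adjusted p 0.0714) and Mid1ip1 (-0.37, adjusted p 0.107) were not. The median over the 10 genes went from -0.43 to -0.24, 7 of the 10 were below 0, and the genes called in all went from 1173 to 672. In the same liver the insulin receptor substrate gene Irs2 was the highest of 75 (8.38), the fasting-responsive gene Igfbp1 ranked 74 of 75 (13.67), and the clock gene Arntl ranked 74 of 75 (9.27). Among other fasting-responsive genes, G6pc ranked 6 of 75 from the lowest, Ppargc1a 26 and Pck1 48. Of the other clock genes, Clock and Nfil3 were the highest of 75, and Per2, Per3, Cry2, Nr1d2, Dbp, Tef and Bhlhe40 the lowest. Counted from the lowest, Nr1d1 ranked 4, Ciart 8, Per1 18, Bhlhe41 25, Hlf 26, Cry1 68 and Npas2 72. The part of feeding state or clock time in the values of this liver was not tested.

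The other compounds shared 1 of the falls on day 4. Mid1ip1 was 11.00, 11.23, 11.40, 11.45 and 11.48 with GW501516 and 11.15, 11.16, 11.18, 11.35 and 11.67 with rosiglitazone, overlapping the vehicle livers in both. The differences were -0.57 (adjusted p 0.0393; 1.35% of all genes called) and -0.57 (adjusted p 0.0431; 1.23%) in limma, and they ended for 11 and 9 of 15 single arrays left out. Srebf1 was 11.00, 11.05, 11.13, 11.14 and 11.18 with rosiglitazone, all below the vehicle livers, as in 0.621% of all genes, yet its difference was not called.

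On day 8 Srebf1 was called with GW501516. Srebf1 was 11.63, 11.63, 11.76, 12.09 and 12.60 with GW501516 and 10.87 to 12.16 (median 11.23) in vehicle, with overlap. It rose by 0.60 (SE 0.16, adjusted p 0.011; 8.83% of all genes called in limma), or 1.52-fold, and the call ended without GW501516 replicate 1 (adjusted p 0.0983). Thrsp with rosiglitazone was 13.92, 13.94, 13.98, 13.98 and 14.00, all above the vehicle livers at 12.86 to 13.90 (median 13.57), as in 3.89% of all genes, and its difference was not called. With WY14643 0 of the 10 genes were called on day 8 (6.32% of all genes) or day 15 (2.86%), and with GW501516 0 on day 15 (4.42%).

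The change of the response over days was tested directly over 240 tests, of which 7 were called. With WY14643 in liver, from day 4 to day 8 (5.41% of all genes called in limma) the Srebf1 difference rose by 0.88 (SE 0.23, adjusted p 0.0131) and the Thrsp difference by 1.502 (SE 0.35, adjusted p 0.00435). Without day 4 replicate 2 the Thrsp change was 0.73 and remained called. The Mid1ip1 difference rose by 1.11 from day 4 to day 15 (SE 0.22, adjusted p 0.00215; 0.753%). With GW501516 the Srebf1 difference rose by 0.85 from day 4 to day 8 (adjusted p 0.0472; 1.04%), and with rosiglitazone the Mid1ip1 difference by 0.98 from day 4 to day 15 (adjusted p 0.033; 0.132%). These last calls ended for 22 and 8 of 30 single arrays left out. From day 4 to day 8 with rosiglitazone 0 members changed (4.25%). Part of the shift lay in vehicle: Mid1ip1 in vehicle livers was 11.46 to 12.15 (median 11.93) on day 4 and 11.19 to 11.64 (median 11.45) on day 15, a fall of 0.42 (adjusted p 0.0395; 4.06% of all genes called), which ended for 11 of 20 single arrays left out. From day 4 to day 8 in vehicle 0 members were called (9.73%).

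**Figure D2:**
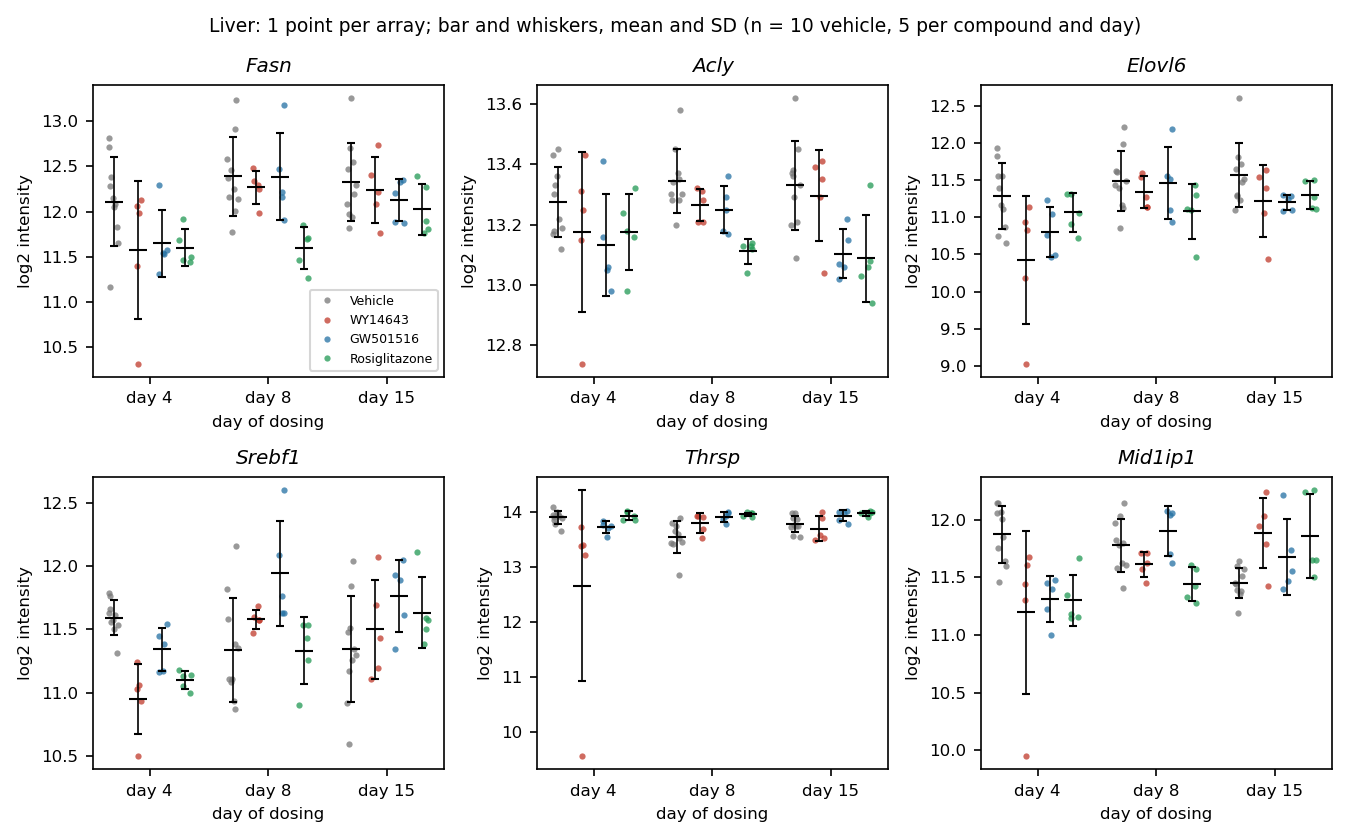
Log2 intensity of Fasn, Acly, Elovl6, Srebf1, Thrsp and Mid1ip1 in each liver array, by day and treatment. Rosiglitazone livers have Acly below vehicle on day 8, and the WY14643 liver far under the others on day 4 is replicate 2, with Thrsp at 9.57.

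The clock state of the livers differed between groups. The first component of 17 clock genes, scaled to unit spread and positive with Arntl, averaged -0.59, 1.38 and 0.62 in vehicle on days 4, 8 and 15, 1.43, -0.19 and 0.23 with WY14643, -0.71, -0.59 and -0.78 with GW501516, and -0.49, -0.91 and -0.80 with rosiglitazone. The WY14643 livers of day 4 ran from 0.52 to 3.35, with replicate 2 the highest. With 2 clock components as covariates, Elovl6 with WY14643 was -0.44 (adjusted p 0.0206 in limma) and remained called. Fasn with rosiglitazone was then -0.38 (adjusted p 0.757), Acly -0.17 (adjusted p 0.603) and Acly with GW501516 -0.15 (adjusted p 0.305). On day 4 with WY14643 the values were -0.48 for Thrsp, -0.28 for Srebf1, -0.45 for Mid1ip1 and -0.78 for Elovl6, none of them called. The component and the treatment overlap, so their parts cannot be told apart. Of the fasting-responsive genes, G6pc, the glucose-releasing phosphatase, fell with all 3 compounds (-0.74, -0.97 and -0.43), while Igfbp1, Irs2, Pck1 and Ppargc1a were not called over the 3 days.

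The 10 genes varied together from liver to liver. After group means were subtracted, 45 of 45 pairs of members had a positive correlation over the 75 livers, with a median of 0.51 and a range of 0.12 to 0.90. Fasn was closest to Elovl6 and Acaca: r was 0.90 with Elovl6 (rho 0.86, 0.87 without the 2 farthest livers) and 0.86 with Acaca (rho 0.81, 0.83). Those 2 livers were the ones with Fasn farthest from its median. The group means were not taken again without them, so they still bear on the values given without them. The lowest r of Fasn was with Scd1 (r 0.47, rho 0.32, 0.36), whose residual SD of 0.09 was at percentile 3.53 of all genes. For the other members the r of Fasn lay between these. With Srebf1 the r was 0.61 (rho 0.60, 0.57), with Acly 0.61 (rho 0.48, 0.49), with Mid1ip1 0.59 (rho 0.53, 0.49), with Acacb 0.54 (rho 0.45, 0.57), with Thrsp 0.52 (rho 0.43, 0.39) and with Me1 0.51 (rho 0.43, 0.41). Over these 9 relations the adjusted permutation p was at most 3e-05 for r and 0.00495 for rho, from 100000 permutations whose smallest p is 1e-05. The genes most like the mean of the members in liver were Gpam (r 0.79), which starts glycerolipid synthesis, Echdc1 (0.74), Pnpla3 (0.73), Anks4b (0.72) and Cyb5r3 (0.72), over 75 livers that share the array platform.

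In kidney the called genes rose, under WY14643 and GW501516. WY14643 raised Scd1 by 0.65 (SE 0.15, adjusted p 0.00766 in limma), or 1.57-fold, with 15 of 15 kidneys above the same-day vehicle mean. It also raised Srebf1 by 0.31 (SE 0.072, adjusted p 0.00637) and Mid1ip1 by 0.27 (SE 0.044, adjusted p 1.67e-05), in 13 and 14 of 15 kidneys. GW501516 raised Srebf1 by 0.45 (SE 0.072, adjusted p 7.12e-06), or 1.37-fold, in 14 of 15 kidneys, and Elovl6 by 0.34 (SE 0.11, adjusted p 0.0406). With rosiglitazone the 10 genes had a median of -0.04. The medians were 0.23 with WY14643 and 0.12 with GW501516, beside -0.003 and 0.007 over all genes. These medians were not adjusted for the brown adipocyte markers, which are described below.

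Scd1 with WY14643 was 11.25, 11.31, 11.43, 11.44 and 11.59 on day 4, 11.59, 11.81, 12.15, 12.31 and 12.48 on day 8 and 12.40, 12.46, 12.56, 12.62 and 12.71 on day 15. The vehicle kidneys were 10.40 to 12.50 (median 11.01), 10.20 to 12.08 (median 11.30) and 10.83 to 12.50 (median 11.70) on those days. On day 4 the treated kidneys lay inside the vehicle range, and on each of days 8 and 15, 3 of the 5 were above the highest vehicle kidney. No single day was called for Scd1. Without day 8 the mean difference was 0.56 (adjusted p 0.133).

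Srebf1 and Mid1ip1 separated from vehicle on day 15. Srebf1 with WY14643 was 7.63, 7.75, 7.80, 7.91 and 7.96 beside 6.85 to 7.47 (median 7.15) in vehicle, and Mid1ip1 was 10.05, 10.10, 10.11, 10.23 and 10.40 beside 9.56 to 9.85 (median 9.71). All treated kidneys were above all vehicle kidneys for both genes, as in 0.638% of all genes. On that day Srebf1 rose by 0.65 (SE 0.13, adjusted p 0.00142 in limma), Mid1ip1 by 0.46 (SE 0.076, adjusted p 9.26e-05) and Elovl6 by 0.72 (SE 0.19, adjusted p 0.0467), with 0.544% of all genes called. Elovl6 was 7.72, 8.06, 8.26, 8.41 and 8.47 beside 7.03 to 7.99 (median 7.34), with overlap, and its call ended for 11 of 15 single arrays left out.

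With GW501516 Srebf1 was 7.45, 7.52, 7.55, 7.82 and 7.98 on day 8, beside 6.93 to 7.68 (median 7.11) in vehicle, and 7.26, 7.78, 7.87, 7.92 and 8.03 on day 15. On day 8, 2 of the 5 treated kidneys were above the vehicle range, and on day 15, 4 of the 5 were. The rises were 0.49 (adjusted p 0.0136 in limma; 9.36% of all genes called) and 0.61 (adjusted p 0.00164; 1.33%), and the first ended without GW501516 replicate 1 (adjusted p 0.0953). That kidney had Acaca at 6.04 and Acly at 10.56, beside 7.64 to 8.48 and 11.43 to 11.52 in the other GW501516 kidneys of day 8. Non-overlapping ranges were seen in 0.511% of all genes on day 8. The part of that kidney in the 9.36%, or in the 6.79% called over the 3 days, was not tested. The mean call of Elovl6 with GW501516 ended for 16 of 45 single arrays left out, with adjusted p up to 0.117. Acly with GW501516 on day 15 lay below all vehicle kidneys, as in 1.09% of all genes, and its difference was not called.

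**Figure D3:**
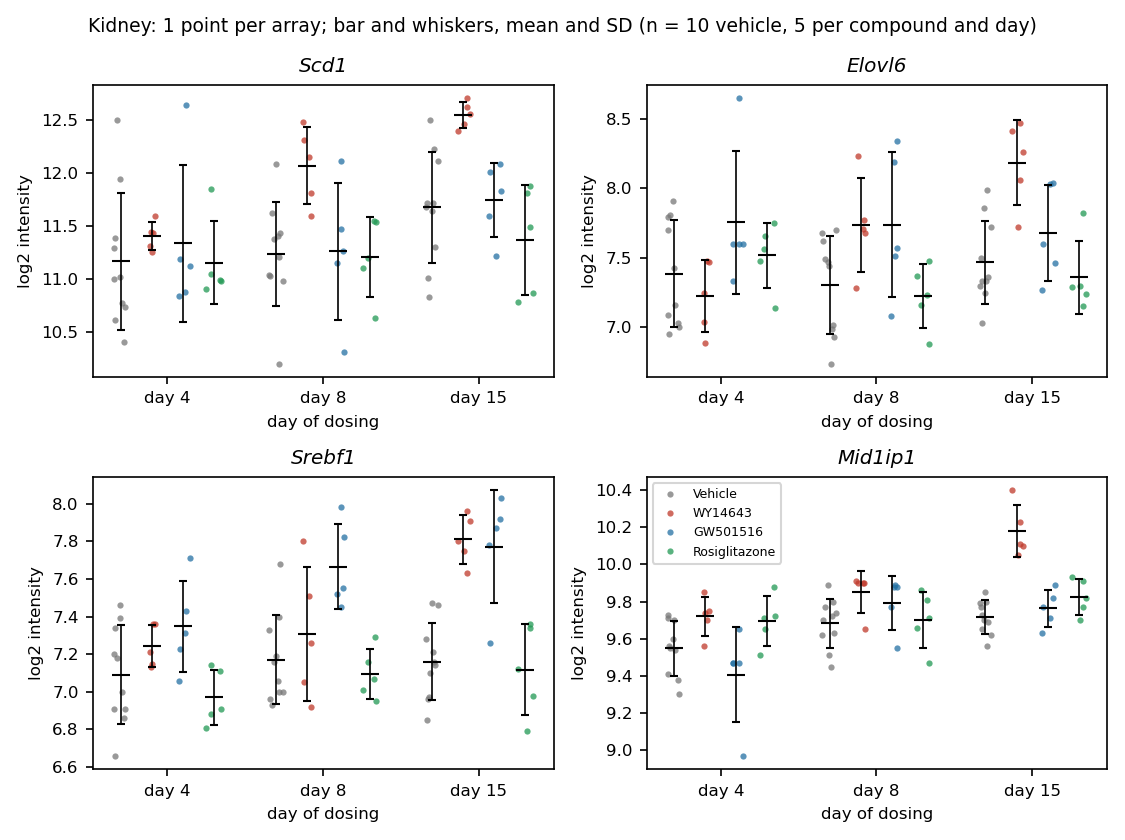
Log2 intensity of Scd1, Elovl6, Srebf1 and Mid1ip1 in each kidney array, by day and treatment. On day 15 the WY14643 kidneys lie above all vehicle kidneys for Srebf1 and Mid1ip1, and Scd1 in vehicle spans 10.83 to 12.50 on that day.

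Brown adipocyte markers moved with some of these genes in kidney. Their mean was 6.24 (3.02 to 7.30) in WY14643 kidneys on day 15 and 5.03 (3.28 to 8.13) in vehicle. Over all kidneys, after group means were subtracted, the marker mean had an r of 0.95 with Thrsp (rho 0.91, 0.94 without the 2 farthest kidneys), 0.83 with Fasn (rho 0.67, 0.80) and 0.66 with Scd1 (rho 0.54, 0.59), with adjusted permutation p of 1.74e-05 for r and 2.35e-05 for rho over 40 relations. In the 59 kidneys with a marker mean below 6, r was 0.86 with Thrsp, 0.49 with Fasn and 0.24 with Scd1. In the 16 kidneys at 6 or more it was 0.94, 0.84 and 0.86. Elovl6 had an r of 0.58 with the marker mean over all kidneys (rho 0.48, 0.52, adjusted permutation p 1.74e-05 and 2.35e-05). Its r was 0.29 in the kidneys below 6 and 0.73 in those at 6 or more. For Srebf1 (r 0.21, rho 0.16, adjusted p 0.0868 and 0.207) and Mid1ip1 (r 0.09, rho 0.03, adjusted p 0.471 and 0.787) no relation passed. With the marker mean as a covariate, chosen after the data were seen, Scd1 with WY14643 was 0.56 (adjusted p 0.00149 in limma), Srebf1 0.30 (adjusted p 0.0097) and Mid1ip1 0.27 (adjusted p 2.77e-05). Srebf1 with GW501516 was 0.44 (adjusted p 1.62e-05), while Elovl6 with GW501516 was 0.27 (adjusted p 0.0584) and no longer called. With clock components as covariates Scd1 with WY14643 was 0.55 (adjusted p 0.0646), Srebf1 0.27 (adjusted p 0.0522) and Elovl6 with GW501516 0.27 (adjusted p 0.212), and the calls of Mid1ip1 with WY14643 and Srebf1 with GW501516 remained. Me1 with GW501516 was then called, at 0.142 (adjusted p 0.0449).

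In heart, Mid1ip1 was the member that changed. It rose by 0.16 with GW501516 (SE 0.045, adjusted p 0.0219 in limma), in 11 of 15 hearts, and by 0.15 with rosiglitazone (SE 0.045, adjusted p 0.0227), in 13 of 15. No other probe set was annotated to Mid1ip1 alone, so its calls in each tissue rest on the probe set used. With both compounds 0 of the 10 genes had a mean difference below 0, where 56.5% and 61.2% of all genes did. The member medians were 0.10 and 0.16 beside -0.01 and -0.02. Both moved when 1 heart with high brown adipocyte markers was left out. Without GW501516 day 15 replicate 1 (marker mean 11.70) 3 of the 10 were below 0 and the median was 0.04. Without rosiglitazone day 4 replicate 1 (marker mean 12.66) 4 were below 0 and the median was 0.02. The latter heart was the highest of all 75 for 9 of the 10 genes and the lowest for Mid1ip1. Without it the rosiglitazone value was -0.07 for Fasn, -0.09 for Elovl6 and 0.20 for Mid1ip1, which remained called (adjusted p 9.03e-05 in limma). The largest mean with rosiglitazone was Scd1 at 0.37 (adjusted p 0.0924), which was called without day 4 replicate 2 or 3 or day 8 replicate 4 (lowest adjusted p 0.0304) and was 0.23 (adjusted p 0.297) without day 4 replicate 1. With WY14643 the median was 0.00.

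The Mid1ip1 difference in heart was called on day 8, when the vehicle level was lower. Vehicle hearts were 13.05 to 13.47 (median 13.09) on day 4, 12.59 to 13.05 (median 12.78) on day 8 and 12.69 to 13.16 (median 12.90) on day 15. GW501516 hearts were 13.12, 13.13, 13.14, 13.20 and 13.32 on day 8, above all vehicle hearts, as in 1.43% of all genes. Rosiglitazone hearts were 13.05, 13.08, 13.10, 13.11 and 13.27, with the lowest at the highest vehicle value to the precision given. The day 8 differences were 0.37 (SE 0.078, adjusted p 0.00219 in limma; 1.63% of all genes called) and 0.31 (adjusted p 0.00803; 4.18%). On day 15 they were 0.21 (adjusted p 0.309) and 0.26 (adjusted p 0.0816), and on day 4 -0.09 and -0.12, none of them called. In vehicle, Mid1ip1 fell by 0.33 from day 4 to day 8 (SE 0.064, adjusted p 0.000984; 0.786% of all genes called) and by 0.25 from day 4 to day 15 (adjusted p 0.0472; 0.39%), the latter ending for 16 of 20 single arrays left out. Without day 8 the mean differences were 0.06 (adjusted p 0.756) and 0.07 (adjusted p 0.536).

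With WY14643 on day 4 Mid1ip1 was 12.65, 12.78, 13.00, 13.01 and 13.04, all below the vehicle hearts, as in 0.253% of all genes, and its difference of -0.24 was not called (adjusted p 0.141). From day 4 to day 8 the Mid1ip1 difference rose by 0.53 with WY14643 (SE 0.11, adjusted p 0.00417 in limma; 0.594% of all genes called) and by 0.46 with GW501516 (adjusted p 0.0407; 0.258%), the latter ending for 19 of 30 single arrays left out. From day 4 to day 15 with GW501516 0 members changed (0.0165%), and with WY14643 on day 15 alone 0 members were called (3.37%). The clock component averaged -0.52, 1.40 and 0.76 in vehicle hearts on days 4, 8 and 15, 0.69, -0.29 and 1.02 with WY14643, and -0.55, -0.75 and -0.75 with GW501516. With clock components as covariates Mid1ip1 turned to -0.03 with GW501516 (adjusted p 0.932) and -0.13 with rosiglitazone (adjusted p 0.465), and Thrsp with rosiglitazone was called at 0.64 (adjusted p 0.0238). The mean call with GW501516 ended without GW501516 day 4 replicate 3 (adjusted p 0.0544), and that with rosiglitazone without rosiglitazone day 4 replicate 5 or day 8 replicate 5 (adjusted p up to 0.0531).

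In muscle Mid1ip1 was again the member called. The mean difference was 0.38 with GW501516 (SE 0.083, adjusted p 0.00578 in limma), or 1.30-fold, in 11 of 15 muscles, and 0.46 with rosiglitazone (SE 0.083, adjusted p 0.000268), or 1.37-fold, in 12 of 15. With WY14643 it was 0.01. Vehicle muscles were 10.23 to 11.45 (median 10.82) on day 4, 9.97 to 10.68 (median 10.49) on day 8 and 10.03 to 10.69 (median 10.39) on day 15. On day 4 the GW501516 muscles were 10.47, 10.65, 10.79, 10.81 and 11.04 and the rosiglitazone muscles 10.61, 10.71, 10.81, 10.96 and 11.23. All lay inside the vehicle range of that day, and neither difference was called (0.0165% and 0% of all genes). Vehicle medians were lower on days 8 and 15 than on day 4, without a call (0.187% and 0.0055% of all genes called). The part of the vehicle level in the mean differences was not tested. Rosiglitazone muscles were 10.93, 10.93, 11.03, 11.13 and 11.17 on day 8 and 10.82, 11.08, 11.22, 11.28 and 11.30 on day 15, above all vehicle muscles on both days, as in 0.89% and 0.33% of all genes. GW501516 muscles were 10.81, 10.84, 10.89, 10.93 and 11.39 on day 8, above all vehicle muscles (0.522% of all genes), and 10.58, 11.05, 11.10, 11.30 and 11.36 on day 15, with overlap. The GW501516 difference of day 8 was not called (0.39% of all genes called).

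By day, Mid1ip1 in muscle rose by 0.60 on day 8 (adjusted p 0.0177 in limma; 0.852% of all genes called) and 0.77 on day 15 (adjusted p 0.00525; 0.242%) with rosiglitazone, and by 0.71 on day 15 with GW501516 (adjusted p 0.0116; 0.066%). The day 8 call with rosiglitazone ended without replicate 2 or 5 (adjusted p up to 0.0767), and the day 15 call with GW501516 ended without replicate 2 or 5 (adjusted p up to 0.136). Without day 8 the mean differences were 0.30 and 0.39 and were not called (adjusted p 0.672 and 0.247). With clock components as covariates the GW501516 value was 0.36 (adjusted p 0.141) and the rosiglitazone call remained.

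**Figure D4:**
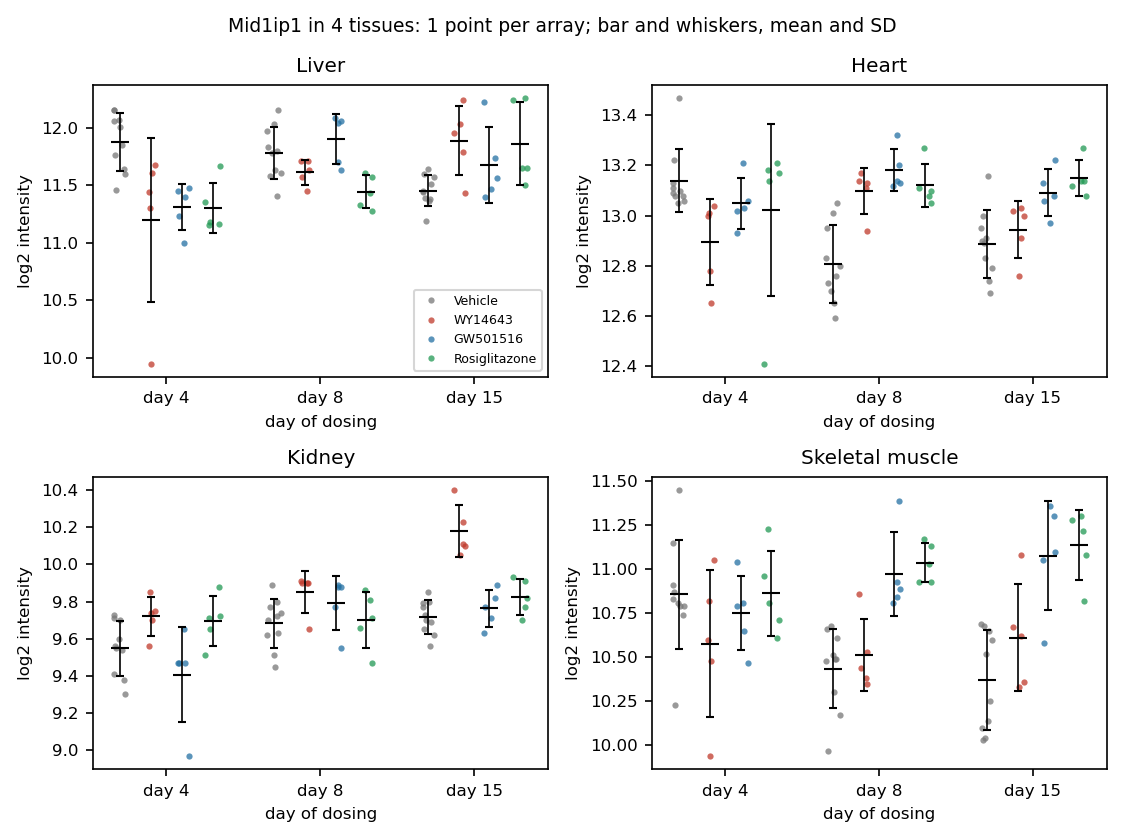
Log2 intensity of Mid1ip1 in each array of liver, heart, kidney and muscle, by day and treatment; panels have their own scales. Treated muscles stand above all vehicle muscles on day 8 with GW501516 and on days 8 and 15 with rosiglitazone, and vehicle hearts stand lower on day 8 (median 12.78) than on day 4 (median 13.09). The day 8 difference with GW501516 in muscle was not called.

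Fasn, Acaca, Acly, Elovl6 and Thrsp varied widely within the muscle groups, and none of them was called. Fasn was 7.69 to 12.53 (median 9.57) in vehicle muscles on day 4 and 11.31, 11.48, 12.06, 12.47 and 13.02 with WY14643. Elovl6 was 4.19 to 11.00 (median 7.24) in the same vehicle muscles and 8.73, 8.94, 9.10, 10.82 and 11.68 with WY14643. The ranges overlapped. The residual SD of Elovl6, 2.70, was at percentile 100 of all genes, and that of Fasn, 1.92, at percentile 99.8, beside a median of 0.25 over all genes and 0.27 for Mid1ip1. Mean differences with WY14643 were 0.93 for Fasn (95% interval -0.25 to 2.11, adjusted p 0.541 in limma) and 1.03 for Elovl6 (-0.64 to 2.69), so changes of that size were not detectable with these arrays. With GW501516 they were -0.75 and -1.12.

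That spread followed brown adipocyte markers. The mean of Ucp1, Cidea and Dio2 was below 6 in 27 muscles and at least 6 in 48, and the correlations are given within each range. Fasn had an r of 0.76 with it in the low muscles (rho 0.75, 0.69 without the 2 farthest, adjusted permutation p 3.08e-05 and 5.71e-05) and 0.94 in the high ones (rho 0.94, 0.93, adjusted p 1.74e-05 and 2.35e-05). Elovl6 had 0.85 (rho 0.84, 0.80) and 0.95 (rho 0.95, 0.94), and Thrsp 0.79 (rho 0.76, 0.71) and 0.95 (rho 0.95, 0.94), with adjusted permutation p of 1.74e-05 for each r and at most 4.21e-05 for each rho. Mid1ip1 had 0.42 (rho 0.28, 0.17, adjusted permutation p 0.0371 and 0.195) and 0.14 (rho 0.18, 0.08, adjusted p 0.372 and 0.226), over the same 40 relations. WY14643 muscles of day 4 had a marker mean of 10.44 (9.01 to 12.09) beside 7.52 (4.33 to 10.98) in vehicle, and a white adipocyte marker mean of 10.33 (9.29 to 10.87) beside 8.55 (6.49 to 11.10). With the brown marker mean as a covariate, the WY14643 value of Fasn was 0.13 and its SE went from 0.59 to 0.14, while Mid1ip1 was 0.39 with GW501516 (adjusted p 0.002 in limma) and 0.45 with rosiglitazone (adjusted p 0.000259).

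In heart 2 arrays carried much of the same relation. Rosiglitazone day 4 replicate 1 had a marker mean of 12.66 and Fasn at 13.88, and GW501516 day 15 replicate 1 had 11.70 and 11.07. Over the 75 hearts Fasn had an r of 0.91 with the marker mean (rho 0.59, 0.78 without the 2 farthest hearts, adjusted permutation p 1.74e-05 and 2.35e-05) and Mid1ip1 an r of -0.55 (rho -0.39, -0.41, adjusted p 3.08e-05 and 0.000985). With the marker mean as a covariate, Mid1ip1 in heart was 0.20 with GW501516 (adjusted p 0.000281 in limma) and 0.18 with rosiglitazone (adjusted p 0.000665).

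**Figure D5:**
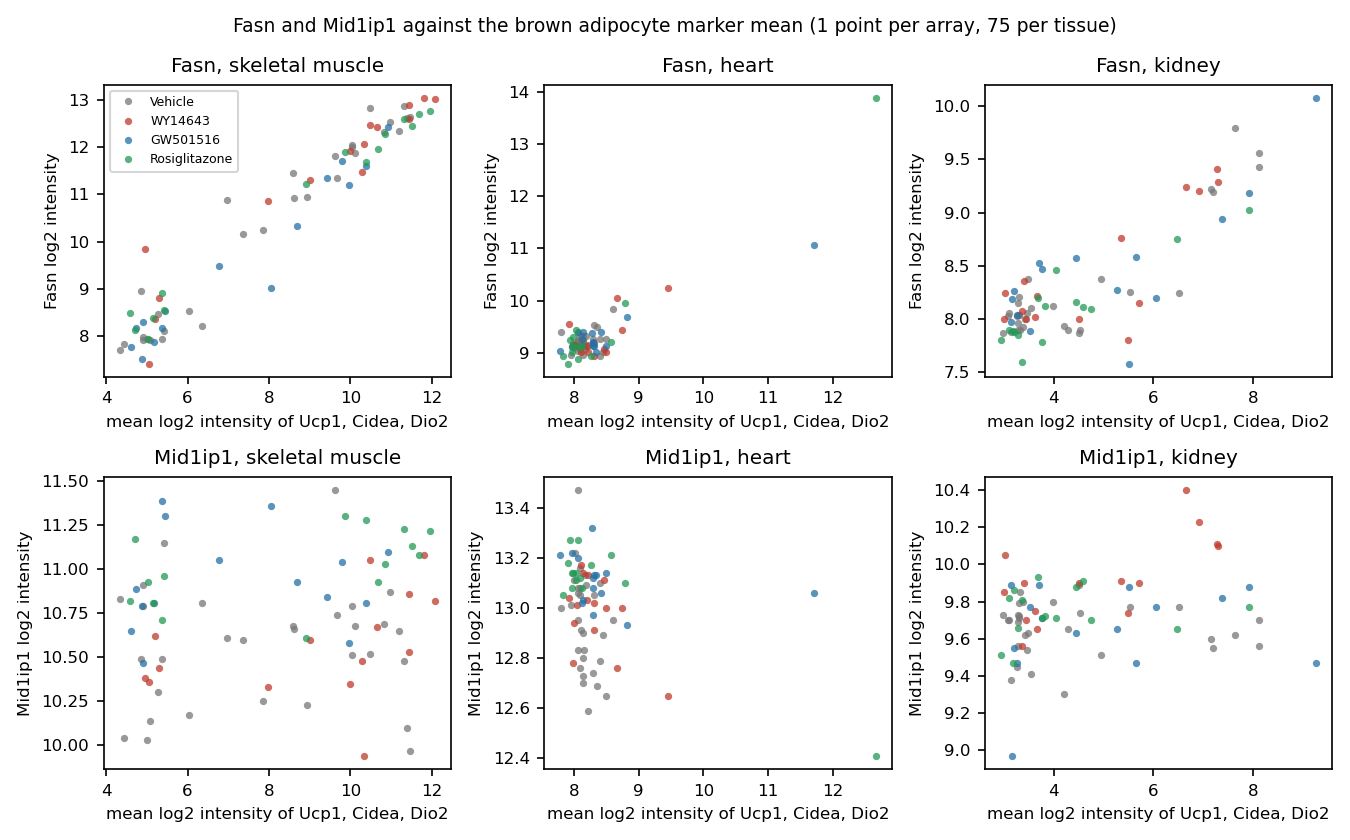
Log2 intensity of Fasn and Mid1ip1 (vertical axes) against the mean log2 intensity of Ucp1, Cidea and Dio2 (horizontal axes) in each muscle, heart and kidney array. In muscle Fasn is higher where the marker mean is higher, over 4.33 to 12.09, with an r of 0.76 in the low and 0.94 in the high muscles, and Mid1ip1 has an r of 0.42 and 0.14.

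The compounds were compared directly at the matched dose and days, in 3 pairs per tissue and 120 tests over the 10 genes, each adjusted over all genes of its comparison. In all, 9 differences were called. In liver Thrsp was lower with WY14643 than with rosiglitazone by 0.57 (difference -0.57, 95% interval -0.90 to -0.24, adjusted p 0.00915 in limma; 17.6% of all genes called), and without WY14643 day 4 replicate 2 the difference was -0.31 and remained called. In liver WY14643 against GW501516 (4.55%) and GW501516 against rosiglitazone (3.59%) gave 0 calls. In heart Srebf1 was lower with WY14643 than with GW501516 (-0.30, -0.46 to -0.14, adjusted p 0.0268; 3.03%), a call that ended without GW501516 day 15 replicate 1 or WY14643 day 15 replicate 4 (adjusted p up to 0.0593). WY14643 against rosiglitazone in heart gave 0 calls (6.12%).

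Kidney held 5 of the 9. Mid1ip1 was higher with WY14643 than with GW501516 (0.26, 0.16 to 0.36, adjusted p 0.0012 in limma; 1.34% of all genes called) and than with rosiglitazone (0.18, 0.08 to 0.28, adjusted p 0.0458; 1.95%). Scd1 (0.77, 0.42 to 1.12, adjusted p 0.00598) and Srebf1 (0.39, 0.23 to 0.56, adjusted p 0.00204) were higher with WY14643 than with rosiglitazone, and Srebf1 higher with GW501516 than with rosiglitazone (0.53, 0.37 to 0.70, adjusted p 1.38e-05; 1.12%). In muscle Mid1ip1 was lower with WY14643 than with GW501516 (-0.37, -0.56 to -0.18, adjusted p 0.0497; 0.572%) and than with rosiglitazone (-0.45, -0.64 to -0.26, adjusted p 0.0447; 0.0385%). The Mid1ip1 calls of kidney against rosiglitazone and of muscle ended for 20, 22 and 21 of 30 single arrays left out.

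The response in liver was set against that of the other tissues of the same animals, in 90 tests of which 11 were called. Against kidney, liver was lower under WY14643 (4.69% of all genes called) for Elovl6 (-0.78, SE 0.16, adjusted p 0.000596 in limma), Scd1 (-0.61, SE 0.16, adjusted p 0.013), Mid1ip1 (-0.40, SE 0.10, adjusted p 0.00881) and Srebf1 (-0.40, SE 0.099, adjusted p 0.0072), and under GW501516 (8.18%) for Elovl6 (-0.63, SE 0.16, adjusted p 0.0059). The Scd1 probe set sat at percentile 99.9 of all probe sets in liver, near the top of the range, which limits the Scd1 value. Against heart, under rosiglitazone (12.5%), liver was lower for Fasn (-0.79, adjusted p 0.0122), Acly (-0.28, adjusted p 0.00639) and Mid1ip1 (-0.32, adjusted p 0.0131). The animal whose heart was rosiglitazone day 4 replicate 1 had a brown adipocyte marker mean of 12.66 in that heart, and without it Fasn was -0.47 (adjusted p 0.0452) and Acly -0.19 (adjusted p 0.0279). Against muscle, liver was lower for Mid1ip1 under GW501516 (-0.45, adjusted p 0.00162; 4.26%) and rosiglitazone (-0.63, adjusted p 6.5e-06; 6.08%), and higher for Me1 under GW501516 (0.44, adjusted p 0.0106). When each of the 45 animals of a comparison was left out in turn, 0 of these 11 calls ended.

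The wider pathway was read from 59 named genes, of which 54 were measured. In liver 5 rose and 7 fell with WY14643, where 11.2% of all genes were called, 8 and 7 with GW501516 (13.9%), and 7 and 12 with rosiglitazone (16.2%). The list medians were -0.01, 0.03 and -0.02. Among elongases and desaturases, Elovl3 fell with all 3 compounds, by 0.63 (SE 0.17), 0.96 (SE 0.17) and 1.07 (SE 0.17), and the desaturase gene Fads2 rose by 0.12, 0.27 and 0.15. The Fads2 call with WY14643 ended for 28 of 45 single arrays left out. In the regulators, Insig2, which holds SREBP in the endoplasmic reticulum, fell by 0.59 (adjusted p 2.91e-07 in limma) with GW501516 and 0.65 (adjusted p 2.43e-08) with rosiglitazone. The sugar-feeding genes Pklr, for pyruvate kinase, and Khk, for ketohexokinase, fell with WY14643 (-0.57 and -0.38) and GW501516 (-0.32 and -0.31). Of the genes that use new fatty acids, Pnpla3 fell with rosiglitazone (-1.03, adjusted p 0.0252), as did Acsl3 (-0.47) and Gpam (-0.29), while the phosphatidate phosphatase gene Lpin1 rose with GW501516 (0.44) and rosiglitazone (0.80), a sign that turned with clock components as covariates (-0.44 and -0.35). The Lpin1 call with GW501516 ended for 15 of 45 single arrays left out. Of NADPH supply, Pgd fell with rosiglitazone (-0.34), and that value was 0.001 with clock components as covariates.

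In kidney 5 of the 54 pathway genes rose and 0 fell with WY14643 (1.74% of all genes called), 6 rose and 1 fell with GW501516 (6.79%), and 2 rose and 1 fell with rosiglitazone (1.52%). The acyl-CoA synthetase gene Acsl3 rose by 0.63 (SE 0.079, adjusted p 1.8e-08 in limma) with WY14643 and 0.74 (adjusted p 6.19e-11) with GW501516. Insig1, a feedback gene of SREBP activity, rose by 0.27 (adjusted p 0.0465) and 0.34, and the desaturase gene Fads1 by 0.30 (adjusted p 0.027) and 0.32. With WY14643 the Insig1 call ended for 30 of 45 single arrays left out, and the Fads1 call for 4 of 45. Scd2 rose with WY14643 (0.36, adjusted p 0.0158), and Mlycd, which breaks malonyl-CoA down, with GW501516 (0.40). In heart 0 rose and 1 fell with WY14643 (1.44%), 2 and 2 with GW501516 (4.17%), and 2 and 3 with rosiglitazone (7.51%), with Dgat2, the last step of triglyceride synthesis, at 0.18 and 0.23 in the latter pair. In muscle 0 were called with WY14643 (0.104% of all genes called), the single rise was Mlycd with GW501516 (0.71, adjusted p 1.08e-09; 0.857%), and the single fall Srebf2 with rosiglitazone (-0.28; 1.65%).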

How the data were processed

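The deposited table of the authors holds log2 intensities, made with RMA in Partek per the submitters' processing notes (versions not given in the sources used here). Total RNA came from Qiagen miRNeasy columns after DNase I and was amplified with NuGEN kits, per the labels' protocols. Median log2 intensity was 6.12 to 6.26 in liver, 7.27 to 7.44 in heart, 5.05 to 5.38 in kidney and 4.98 to 5.13 in muscle, so the scale of each tissue is its own. Of 45101 probe sets, 34945 named 1 gene, 932 several, 9160 none and 64 were controls. The brightest probe set stood for each gene, with no filter, which gave 18193 genes. Arrays of 1 animal across tissues were taken from the animal numbers in the labels.

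The arrays of a tissue entered 1 fit in limma 3.58.1 (lmFit, eBayes with trend; R 4.3.3) with 12 group means and 63 residual degrees of freedom. Tests were two-sided with Benjamini-Hochberg adjustment over 18193 genes. Tissue differences were fitted on differences between arrays of the same animal. The number of arrays, 5 treated and 10 vehicle per day, limits the precision. In data simulated from the liver arrays, 98% of 50 genes changed 1.5-fold were recovered over the 3 days and 86% on day 4. For 1.25-fold in liver the shares were 82% and 40%, and for 1.5-fold in muscle 88% and 58%. The changed genes were drawn at random from all genes, and many members vary more than most genes. In liver the residual SD of Thrsp was 0.47 beside a median of 0.20, so these shares need not hold for the members.

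The members, the lists and the tests were chosen with earlier results of these data known. All 10 members are named in each comparison where their values bear on it. Of the pathway list, up to 4 called genes with the largest change per role are named, with called genes of opposite sign, and not each gene admitted was printed. Alternatives were the mean of all probe sets, quantile normalization, dim genes left out, a replicate block, clock, adipocyte or hepatocyte covariates, day 8 left out and each array left out in turn. The brown adipocyte covariate, the split of muscles and kidneys at a marker mean of 6, the fits of heart members without 1 array and the tissue differences with each animal left out were added after the values were seen. Upstream sequences came from RefSeq (GRCm38.p6), with 12 windows for 9 of the 10 genes.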

Additional observations from a re-analysis of the deposited data

Results flagged for a closer look

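In 35 groups of arrays that carry the values described, the gap of the highest or lowest array to its neighbour was tested against Dixon's 95% value, which chance passes in about 1 group in 20, and 4 passed. Thrsp and Mid1ip1 in liver with WY14643 on day 4 had replicate 2 at 9.57 and 9.95, where the nearest arrays were at 13.23 and 11.30. Acly in liver with rosiglitazone on day 8 had replicate 5 at 13.04, nearest 13.12. Mid1ip1 in heart with rosiglitazone on day 8 had replicate 5 at 13.27, nearest 13.11.

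The response differed between tissues of the same animals, by a test of the difference itself in limma. For liver minus heart with rosiglitazone, Fasn was -0.789, Acly -0.283 and Mid1ip1 -0.318. Without the animal whose heart was rosiglitazone day 4 replicate 1, Fasn was -0.473 and Acly -0.191. For liver minus kidney with WY14643, Scd1 was -0.607, Elovl6 -0.782, Srebf1 -0.396 and Mid1ip1 -0.404, and with GW501516 Elovl6 was -0.632. For liver minus muscle, Me1 was 0.443 and Mid1ip1 -0.451 with GW501516, and Mid1ip1 -0.625 with rosiglitazone.

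The response differed between days, by the same kind of test. In liver with WY14643, day 8 minus day 4 was 0.88 for Srebf1 and 1.502 for Thrsp (0.729 without day 4 replicate 2), and day 15 minus day 4 was 1.114 for Mid1ip1. In liver it was 0.852 for Srebf1 with GW501516 (day 8 minus day 4) and 0.978 for Mid1ip1 with rosiglitazone (day 15 minus day 4). In heart, day 8 minus day 4 was 0.534 for Mid1ip1 with WY14643 and 0.461 with GW501516.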

How the results depend on the processing

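The number of members called over the 3 days was 0 in heart with WY14643, kidney with rosiglitazone and muscle with WY14643 under all alternatives run. With the mean of all probe sets 2, 2 and 1 were called in place of 1, 1 and 2 (liver WY14643, liver GW501516, kidney GW501516). With quantile normalization kidney GW501516 gave 1, and with dim genes left out liver GW501516 gave 2. With clock components as covariates 0 were called in liver with GW501516 and rosiglitazone, in heart with GW501516 and in muscle with GW501516, and 1 in kidney with WY14643. The calls within single days went from 20 to 12, changes over days from 7 to 0, vehicle day differences from 3 to 0 and tissue differences from 11 to 3. Without day 8, liver WY14643 gave 2, kidney GW501516 1, and liver rosiglitazone, heart GW501516, heart rosiglitazone, muscle GW501516 and muscle rosiglitazone 0. Compound differences then went from 9 to 4 and tissue differences from 11 to 4. With brown adipocyte markers as a covariate kidney GW501516 gave 1.

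With the replicate number as a replicate block, 0 were called in muscle with GW501516 and 1 in kidney with GW501516, and 21 within single days. The numbers do not pair the arrays: deviations of arrays with the same number had a mean correlation of -0.009 to 0.027.

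Leaving out each array in turn gave 0 to 2 calls in liver with WY14643, 1 to 2 in liver and in kidney with GW501516, 0 to 1 in heart with GW501516 and 0 to 2 in heart with rosiglitazone. It gave 14 to 22 single-day calls, 2 to 9 changes over days, 5 to 10 compound differences and 1 to 4 vehicle day differences.

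Signs turned in these cases, and the cause was not tested. With the mean of all probe sets, Fads3 in liver with GW501516 was 0.140 and Ndufab1 in kidney with GW501516 -0.030. With clock components as covariates, Elovl1 was 0.064, Dgat2 -0.006 and Lpin1 -0.442 in liver with GW501516, and Pgd 0.001, Elovl1 0.093 and Lpin1 -0.349 with rosiglitazone. In heart Mid1ip1 was -0.027 with GW501516 and -0.131 with rosiglitazone (-0.081 on day 8), and Srebf2 was 0.052 with rosiglitazone. Number of arrays and, in muscle, spread between animals limit what could be detected. The correlation of all 9 other members with Fasn in liver passed under each alternative run for it.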
